A study of Secale cereale x Triticum turgidum subsp. durum with 39 samples.

Results

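The comparison described here set triticale anthers against the female organs of the flower at the bicellular pollen stage (BCP). It used 9 of the 39 arrays of the series: 3 of anthers, 3 of ovaries and 3 of stigmas, all collected when the pollen in the anthers was bicellular. Triticale is a hybrid cereal of rye and durum wheat, here the cultivar Alta (x Triticosecale Wittmack), and no treatment was applied. The plants of all groups were grown in a growth chamber. RNA of whole organs was measured on the Affymetrix Wheat Genome Array, and the labels call the 3 samples of each group biological replicates without saying which plants or florets they came from. All 9 samples were extracted with the same kits and labelled with the same kit, so organ and kit were not confounded. The series also holds the same organs at the tetrad (TET), uninucleate microspore (UNM) and tricellular pollen (TCP) stages, and mature pollen grains (MPG). Those arrays shared in the estimate of the spread, served to follow the BCP differences at other stages and placed the replicates between stages.

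An anther is a set of pollen sacs with their wall layers. The innermost of these, the tapetum, feeds the developing pollen and then breaks down. In bicellular pollen the microspore nucleus has divided unequally, and a large vegetative cell, which will later grow the pollen tube, encloses a small generative cell, which will give rise to the sperm. Ovaries hold the ovules in mostly green tissue, and grass stigmas are feathery organs that catch the pollen. Because whole organs were measured, fewer cells of a type and less RNA per cell cannot be told apart in any difference given here.

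Each probe set, the group of short probes that reports a transcript, was tested in anther against ovary and in anther against stigma, and a difference was kept when both comparisons called it in the same direction. A call needed an adjusted p under 0.05 in limma, with the Benjamini-Hochberg method over 61179 probe sets, and a log2 difference of at least 1, which is 2-fold. Of the 61290 probe sets in the table, 111 control probe sets were left out. Signals on the 9 arrays ran from 1.96 to 14.94 on the log2 scale, and means under 6 are called dim. Where 1 of the means is dim, the fold is one of array signal and may not equal the ratio of transcripts.

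Many transcripts separated BCP anthers from both female organs. Anthers exceeded ovaries at 3900 probe sets (6.37%) and fell below them at 4461 (7.29%). The comparison with stigmas called 4523 (7.39%) higher and 4459 (7.29%) lower. Both comparisons agreed for 3179 probe sets higher in anthers (5.2% of those tested) and for 2601 lower (4.25%). The balance of directions depended on scaling: with arrays levelled on the hybridisation controls, 2602 were kept higher and 3448 lower, and against stigmas 3513 were higher and 6355 lower. Against ovaries that scaling gave 3374 and 5309. With the median of the brighter probe sets made equal, the balance moved the other way, to 3460 kept higher and 2331 lower, and to 4387 higher and 3906 lower against ovaries. Stigmas and ovaries were closer to each other, with 1862 probe sets (3.04%) higher and 2354 (3.85%) lower in stigmas. Correlations between arrays were ordered alike: anther and ovary arrays correlated at 0.886 to 0.908, anther and stigma arrays at 0.871 to 0.897, and ovary and stigma arrays at 0.955 to 0.966. They run over probe sets, many of which report related transcripts, and are given as a description.

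The remaining probe sets were accounted for as follows. Neither comparison called 49692. Against ovaries alone, 695 were higher and 1810 lower in anthers, and against stigmas alone 1294 were higher and 1832 lower. Anthers lay between the female organs for the rest: 50 were lower than in ovaries and higher than in stigmas, and 26 were the reverse. The kept set was bounded by the 2-fold minimum, since the smallest kept difference was 1.00 in either direction. A further 3051 higher and 3833 lower probe sets had an adjusted p under 0.05 in both comparisons and missed that minimum in at least one.

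**Figure D1:**
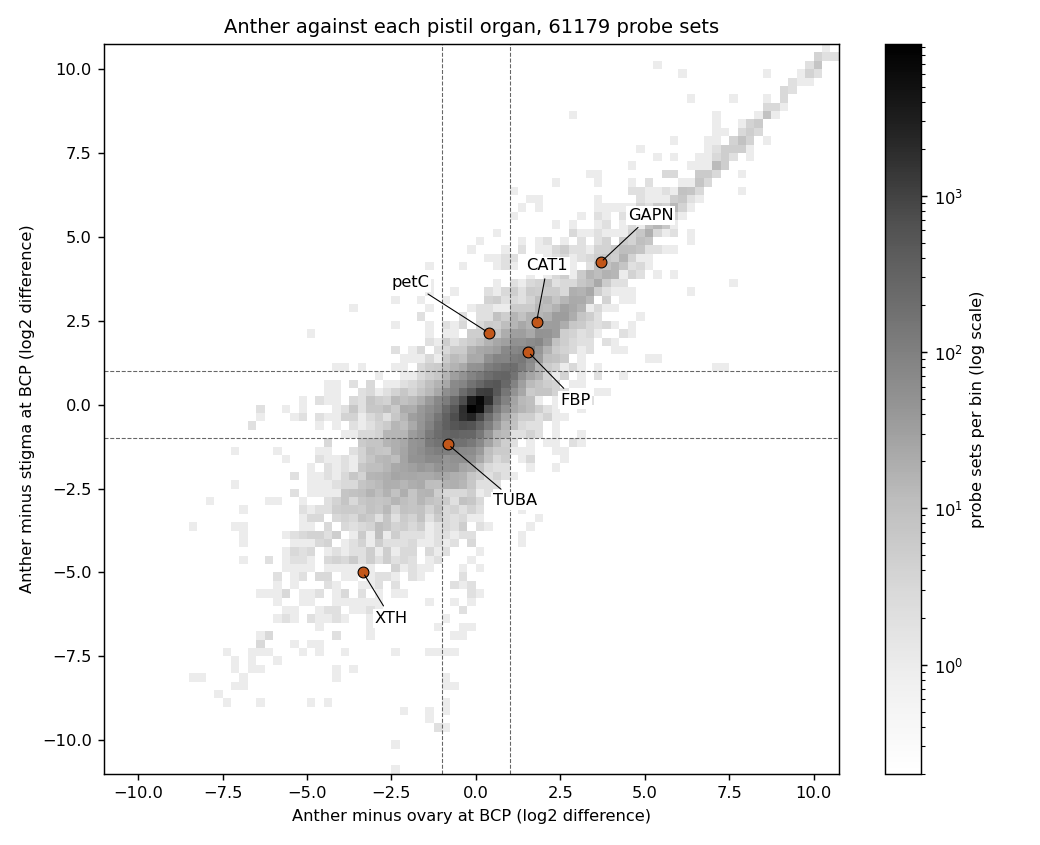
Log2 difference of anther minus ovary (horizontal) and anther minus stigma (vertical) at BCP for 61179 probe sets, counted in squares of 0.25 log2 units and shaded on a log scale. Dashed lines mark a log2 difference of 1 either way, and 6 named genes are placed by their values. The upper right arm, higher in anthers than in both organs, reaches beyond 10, and the lower left arm is shorter and broader. Both axes use the same 3 anther arrays.

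The probe sets higher in anthers reached further than those lower. Of the 3179 higher, 342 differed by at least 5 log2 units in the smaller of the 2 comparisons, and 453 more by at least 3. Of the 2601 lower, 49 and 263 did. The largest smaller difference was 10.44 for the higher and 8.25 for the lower. Median differences were 1.94 against ovaries and 2.15 against stigmas for the higher probe sets, and -1.90 and -1.89 for the lower, against medians of -0.02 and -0.05 over all probe sets tested. These values describe the selection, since the same differences chose the probe sets. Anther arrays did not overlap with any array of either female organ for 3134 of the 3179 and 2580 of the 2601. They did not overlap for 17020 of all 61179 (27.8%), many more than the 5.2% and 4.25% called.

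Much of the higher set was dim outside the anther. Both female organs were dim for 1758 of the 3179 higher probe sets (55.3%), and 251 of these had an anther mean of at least 10. Anthers were dim for 1111 of the 2601 lower probe sets (42.7%), and 34 of these had means of at least 10 in both female organs. All 3 organs were dim for 429 of the higher and 120 of the lower probe sets, where a difference is less certain. Over all probe sets, 36763 were dim in the 3 organs.

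Several kept probe sets report related transcripts, so their number is larger than the number of genes. The higher set held 2512 name stems (the shared part of a probe set name, which marks a sequence cluster of the array) and the lower set 1995. For 12 stems in each set a probe set of the same stem was kept in the opposite direction. Probe sets whose probes may also match other sequences (names ending in x_at) made up 16.8% of the higher and 16.3% of the lower set, against 11.1% of all tested.

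Gene names were scarce. The platform annotation, which is old, paired 1273 of the 61179 probe sets with a symbol, of which 13 symbols were gene names and 758 were locus numbers with no description. All 13 named genes are given here, each by its brightest probe set. GAPN, CAT1 and FBP were kept as higher in anthers, XTH was kept as lower, petC and TUBA were called against stigmas only, and the other 7 were called in neither comparison. Beside them stand 8 wheat transcripts that the array carries as maintenance controls, all but 18SrRNA with several probe sets along the transcript. They are outside the 61179 and were tested in a fit of 61204 probe sets that kept them. Few of these transcripts mark an organ. Of the pollen markers actin was higher in anthers and TUBA lower than in stigmas, of the green tissue markers FBP was higher in anthers and petC higher than in stigmas, and XTH, a pistil marker, was lower in anthers.

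In the carbon metabolism and photosynthesis group, GAPN and FBP were higher in anthers than in both female organs and petC was higher than in stigmas. GAPN, the non-phosphorylating glyceraldehyde-3-phosphate dehydrogenase that yields NADPH in the cytosol, had log2 signals of 9.92, 9.03 and 8.41 on the 3 anther arrays. Ovary arrays read 5.62, 5.37 and 5.28 and stigma arrays 4.99, 4.38 and 5.27, so the lowest anther array was far above every female array and both female organs were dim. The difference was 12.9-fold against ovaries (log2 3.69, SE 0.24, limma adjusted p = 8.5e-15) and 18.9-fold against stigmas (log2 4.24, SE 0.24, adjusted p = 1.7e-16).

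FBP, a fructose bisphosphatase of sugar synthesis, read 8.99, 9.10 and 8.18 on the anther arrays. Its signals were 7.42, 7.00 and 7.21 in ovaries and 7.18, 7.21 and 7.13 in stigmas. The anther arrays did not overlap with the female arrays, which overlapped with each other, and anther replicate 3 was closer to the female arrays than the others. FBP was 2.91-fold higher than in ovaries (log2 1.54, SE 0.20, limma adjusted p = 1.3e-07) and 2.99-fold higher than in stigmas (log2 1.58). Its other probe set was dim in all 3 organs and was not called, with differences of -0.30 and -0.28.

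The gene petC, which encodes the Rieske subunit of cytochrome b6f in photosynthetic electron transport, separated stigmas from the other organs. Anther arrays read 11.57, 11.20 and 10.73, ovary arrays 10.88, 10.85 and 10.63, and stigma arrays 8.93, 8.88 and 9.29. Anthers and ovaries overlapped and did not differ by the test (log2 0.38, SE 0.21, limma adjusted p = 0.20). Against stigmas petC was 4.41-fold higher in anthers (log2 2.14, SE 0.21, adjusted p = 2.1e-10) and 3.38-fold higher in ovaries. The other petC probe set was dim in all 3 organs and was not called, with differences of -0.13 from ovaries and -0.38 from stigmas. For FBP the difference of stigmas minus ovaries was -0.04 (SE 0.20, adjusted p = 0.95). PFK, a phosphofructokinase of glycolysis, was dim in all 3 organs, and its difference of -0.58 against ovaries (adjusted p = 0.0041) was under the fold minimum.

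The sucrose synthase control (Sucsyn), named for an enzyme that splits sucrose for growth and wall synthesis, was lower in anthers. Its 3' probe set read 9.90, 10.32 and 9.53 on the anther arrays, 12.43, 12.67 and 12.34 in ovaries, and 11.86, 12.04 and 12.10 in stigmas. That made it 5.92-fold lower than in ovaries (log2 -2.57, SE 0.22, limma adjusted p = 9.3e-12) and 4.24-fold lower than in stigmas (log2 -2.08). The M probe set from the middle of the transcript gave -2.38 and -2.85, while the 5' probe set was dim in all 3 organs and was not called. At TCP, measured with other kits, the 5' probe set averaged 8.03 in ovaries, 7.70 in stigmas and 4.22 in anthers. G-6-PDH, named for the first enzyme of the oxidative pentose phosphate pathway, was lower than in stigmas at all 3 of its probe sets. At its 3' probe set the anther arrays read 8.01, 8.23 and 7.44 and the stigma arrays 9.43, 9.50 and 9.47 (log2 -1.57, SE 0.21, adjusted p = 1.7e-07). Against ovaries none of the 3 was called, with differences from -0.77 to -0.20. The gapdh control, named for the phosphorylating dehydrogenase of glycolysis, was dim in all 3 organs, and none of its 5 probe sets was called in either comparison.

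In the cell wall group, XTH was the one named member. It encodes a xyloglucan endotransglucosylase/hydrolase, an enzyme that cuts and rejoins wall xyloglucan in expanding cells. Anther signals were dim at 5.99, 5.37 and 5.59, ovary signals were 8.89, 9.18 and 8.94, and stigma signals 10.17, 11.13 and 10.61. The 3 organs formed 3 separate levels, and stigmas exceeded ovaries by 3.10-fold (log2 1.63, SE 0.21, limma adjusted p = 1.9e-07). XTH was 10.2-fold lower in anthers than in ovaries (log2 -3.35, SE 0.21, adjusted p = 1.5e-15) and 31.7-fold lower than in stigmas (log2 -4.98, adjusted p = 1.8e-20).

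The cytoskeleton group split. Actin, the filament protein whose bundles carry the traffic of a pollen tube, was higher in anthers at all 4 probe sets of its control. At the 3' probe set the anther arrays read 12.54, 11.95 and 13.08, against 4.69, 4.43 and 4.60 in ovaries and 4.98, 4.96 and 5.04 in stigmas. This was a signal difference of 247-fold against ovaries (log2 7.95, SE 0.18, limma adjusted p = 6.8e-28) and 185-fold against stigmas (log2 7.53). The difference shrank along the transcript. The M probe set read 9.45, 8.86 and 10.37 in anthers and differed by 3.51 and 2.74, and the 5' probe set read 6.82, 6.59 and 8.04 and differed by 1.32 and 1.20. Without anther replicate 3, the 5' differences were 0.88 and 0.75 and no longer called. Each of the 3 probe sets was highest on anther replicate 3 and lowest on replicate 2. At TCP, measured with other kits, the 5' probe set had an anther mean of 13.55. Stage and kit cannot be told apart in that value.

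TUBA, an alpha-tubulin of the microtubules, was lower in anthers by a small margin at very bright signals. It read 12.67, 13.08 and 12.69 on the anther arrays, 13.57, 13.73 and 13.63 in ovaries, and 14.02, 14.14 and 13.83 in stigmas. None of the organs overlapped another. Against stigmas the difference was called (2.27-fold, log2 -1.18, SE 0.11, limma adjusted p = 8.4e-11). Against ovaries it was -0.83 (adjusted p = 2.1e-07), under the fold minimum. The name of this probe set ends in x_at, so its probes may also match other sequences. The other TUBA probe set was dim in all 3 organs and was not called, with differences of -0.16 from ovaries and -0.62 from stigmas.

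**Figure D2:**
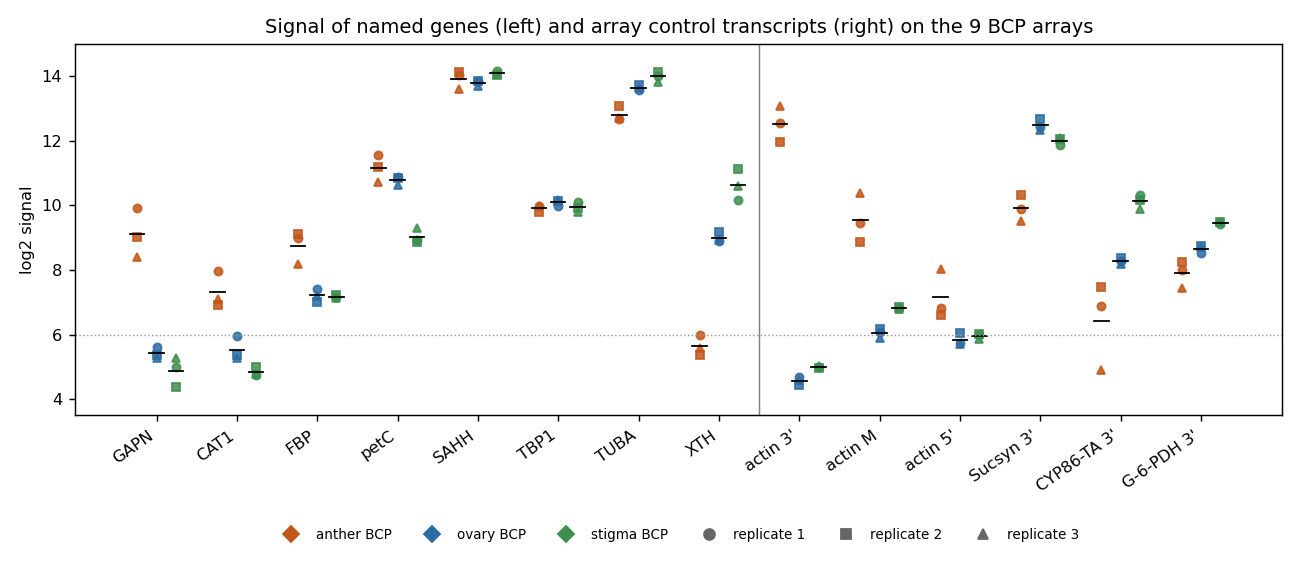
Log2 signal on each of the 9 BCP arrays for 8 named genes (left of the line) and for 6 probe sets of the array's control transcripts (right). Colours mark the organ, symbols the replicate number and short bars the group mean, and the dotted line marks a signal of 6. GAPN and actin 3' stand far above the female arrays in anthers, XTH forms 3 separate levels, and CYP86-TA 3' is spread widely among the anther arrays.

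CAT1, a catalase that breaks down hydrogen peroxide, read 7.97, 6.91 and 7.09 in anthers. Ovaries were at 5.94, 5.36 and 5.27 and stigmas at 4.76, 5.01 and 4.79, both dim. The anther mean exceeded that of ovaries 3.48-fold (log2 1.80, SE 0.31, limma adjusted p = 1.6e-05) and that of stigmas 5.52-fold (log2 2.47, adjusted p = 5.2e-08). Its other probe set lay between 3.80 and 4.46 on all 9 arrays and was not called. CAT1 was the only named member of the oxidative stress list.

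Of the housekeeping and transcription group, the control CYP86-TA alone was called, as described below. SAHH, the adenosylhomocysteinase that clears the by-product of methylation reactions, differed by 0.12 from ovaries and -0.17 from stigmas at means of 13.80 to 14.09. Its other probe set differed by 0.31 and -0.30 and was not called. TBP1, the TATA-binding protein of transcription initiation, differed by -0.17 and -0.03 at means of 9.92 to 10.09. The ubiquitin control, for the protein tag of degradation, ran from 13.09 to 13.38 at its M probe set, and 18SrRNA, the RNA of the small ribosomal subunit, from 12.89 to 13.40. No probe set of ubiquitin, 18SrRNA or the translation factor control ef1a was called in either comparison. The thionins THI1.1, THI1.2 and TTHV, which are antimicrobial peptides, and the dehydrin COR410, a protein of cold and drought stress, were dim in all 3 organs and were not called.

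The control CYP86-TA, named for a cytochrome P450 family that oxidises fatty acids, differed at its 3' probe set alone. That probe set read 6.87, 7.48 and 4.89 on the anther arrays, 8.26, 8.39 and 8.19 in ovaries, and 10.33, 10.16 and 9.89 in stigmas. It was lower by 3.64-fold against ovaries (log2 -1.86, SE 0.32, limma adjusted p = 1.5e-05) and by 13.1-fold against stigmas (log2 -3.71). The anther value rests in part on replicate 3, without which the difference from ovaries was -1.10, still called. The 5' and M probe sets of the same control were between 6.40 and 7.76 on all 9 arrays and were not called.

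Locus numbers without a description carried larger differences than any named gene of the 61179. Of the 1254 probe sets with a locus number, 129 (10.3%) were kept higher and 103 (8.21%) lower, from 95 and 75 loci, against 5.2% and 4.25% of all. LOC543009 read 14.24, 14.30 and 13.94 in anthers and between 3.79 and 4.14 on the 6 female arrays (log2 10.05 and 10.24, SE 0.43, limma adjusted p = 3.4e-20 and 1.5e-20). LOC543442 was similar, with 13.62, 13.57 and 13.47 in anthers and differences of 9.90 and 9.72. Both were as high in UNM anthers, at 14.23 and 13.44, and had lost most of their signal in TCP anthers, at 6.86 and 4.96.

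A different course marked LOC543135 and LOC543369. The former had an anther mean of 5.71 at UNM (SD 1.46), 12.30 at BCP and 7.31 at TCP. The latter had 5.84 (SD 0.22), 11.54 and 4.88. Their differences at BCP were 8.61 and 8.68 for LOC543135 and 7.61 and 7.89 for LOC543369. LOC542873 had means of 6.24 at TET, 9.57 at UNM, 11.83 at BCP and 13.20 at TCP in anthers, and 13.37 in mature pollen, against 3.53 to 3.88 in the female organs at every stage. Its BCP differences were 8.13 and 8.11. The means at TET, TCP and in mature pollen were measured with other kits than those at UNM and BCP.

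Among loci lower in anthers, LOC100049017 read 4.32, 4.32 and 4.11 on the anther arrays, 11.68, 11.77 and 11.66 in ovaries, and 13.04, 13.11 and 13.09 in stigmas (log2 -7.46 and -8.83, SE 0.17). It was dim in anthers at all 4 stages and in mature pollen. LOC542961 was at 5.34, 5.86 and 4.93 in BCP anthers, with a difference of -5.49 from each female organ, and its UNM anther mean was 10.12. Only 2 of its 5 probe sets were kept. LOC606361 (-6.33 and -6.76), LOC606308 (-6.19 and -6.77) and LOC100037600 (-4.72 and -5.59) completed the 5 lower loci named by rule.

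Probe sets without any symbol held the extremes. TaAffx.87253.3.S1_at read 14.11, 14.43 and 12.95 in anthers and between 3.08 and 3.49 in the female organs (log2 10.58 and 10.44), and its anther mean was 13.42 at UNM and 4.06 at TCP. Ta.16011.1.S1_at read 13.81, 13.60 and 13.80 (log2 10.58 and 10.38), with anther means of 5.41 at UNM (SD 2.15) and 9.21 at TCP. In the other direction, Ta.9525.1.S1_at read 5.02, 4.68 and 4.96 on the anther arrays, 13.22, 13.15 and 13.23 in ovaries, and 13.16, 12.98 and 13.25 in stigmas (log2 -8.31 and -8.25, SE 0.18). The probe set next to it in size, Ta.9525.1.S1_x_at (-8.23 and -8.05), shares its stem and is not a separate observation.

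The kept probe sets were then followed at the other stages, whose group means had no part in choosing them, although those arrays shared in the estimate of the spread. Those higher in BCP anthers were called higher than both female organs for 711 of 3179 at TET (22.4%, against 3.63% of all probe sets), 1585 at UNM (49.9%, against 5.16%) and 1467 at TCP (46.1%, against 6.19%). The lower set was called lower for 811 of 2601 at TET (31.2%, against 2.67%), 1449 at UNM (55.7%, against 4.46%) and 1533 at TCP (58.9%, against 11.2%). At UNM, 13 of the higher set were called in the opposite direction (0.409%, against 4.46% of all). For the lower set these were 31 (1.19%, against 5.16%). At TCP they were 117 of the higher set (3.68%, against 11.2%) and 25 of the lower (0.961%, against 6.19%). TET gave 24 (0.755%, against 2.67%) and 76 (2.92%, against 3.63%), the latter near the share of all. All 4 stages agreed for 234 higher (7.36%) and 370 lower (14.2%) probe sets. At no other stage were 710 higher (22.3%) and 393 lower (15.1%) called, which does not show that they did not differ there. For these combinations of stages the share over all probe sets was not computed, so the counts are given as a description.

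**Figure D3:**
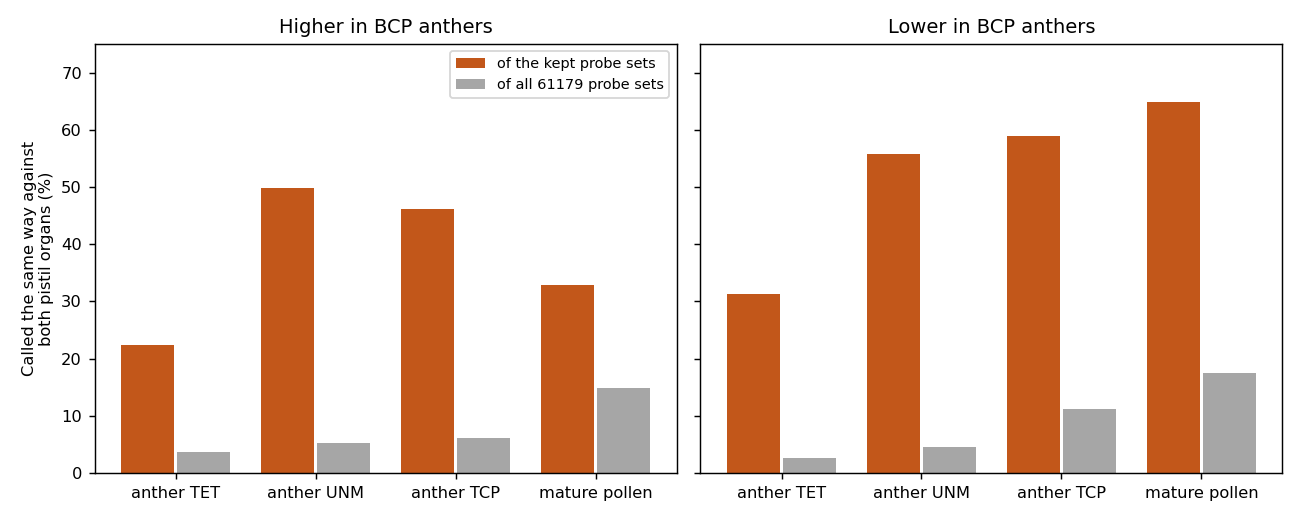
Share of the probe sets kept at BCP (3179 higher, 2601 lower) that were called the same way against both female organs at another stage (orange), beside the share of all 61179 probe sets called in that direction (grey). Mature pollen was set against ovaries and stigmas at TCP. In the higher set the UNM share (49.9%) is the highest and the mature pollen share (32.9%) lies below both UNM and TCP, and in the lower set mature pollen has the highest share (64.8%).

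Mature pollen parted the higher from the lower set. Against ovaries and stigmas at TCP, 1045 of the 3179 higher probe sets were higher in mature pollen (32.9%, against 14.9% of all) and 437 were lower (13.7%, against 17.4%). Of the 2601 lower probe sets, 1686 were lower in mature pollen (64.8%, against 17.4%) and 31 higher. The higher set was itself mixed. Of the 1585 probe sets already called at UNM, 374 (23.6%) were higher in mature pollen, and their median signal was 8.53 in UNM anthers, 8.73 at BCP, 7.13 at TCP and 5.63 in mature pollen. Of the 1594 not called at UNM, 671 (42.1%) were higher in mature pollen, with medians of 5.76, 8.20, 7.72 and 6.89 along the same course. Since UNM calls split the set, its UNM medians are a description of that split.

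Median signals over the whole sets are given as a description. The sets were chosen by their BCP means, and that choice favours an extreme anther median at BCP. In the higher set the anther median was 5.74 at TET, 7.27 at UNM, 8.46 at BCP and 7.39 at TCP. In the same probe sets ovaries stayed between 5.14 and 5.53 and stigmas between 5.04 and 5.39. In the lower set the female organs stayed between 8.08 and 8.79, and the anther median was 7.42 at TET, 7.25 at UNM, 6.33 at BCP and 5.75 at TCP. Kits changed after TET and again after BCP, so stage and kit cannot be told apart across those steps.

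**Figure D4:**
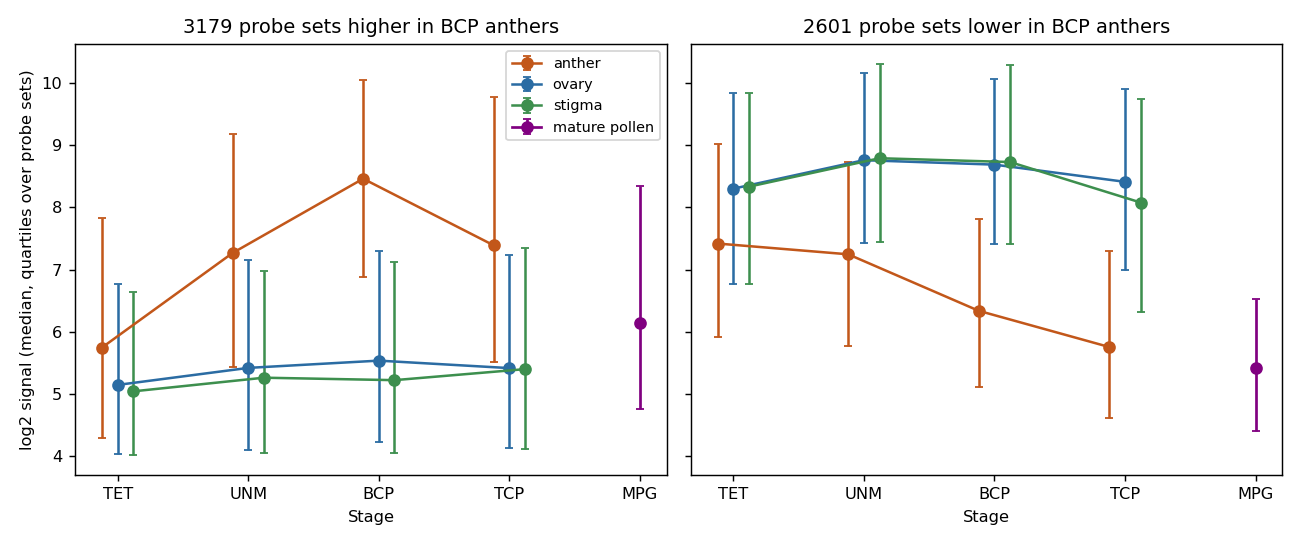
Median log2 signal, with bars from the lower to the upper quartile over probe sets, of the 3179 probe sets higher (left) and the 2601 lower (right) in BCP anthers, by stage and organ; MPG is mature pollen. The sets were chosen at BCP, so the gap there is fixed by the choice, which also favours an extreme anther median at BCP. Anthers move while ovaries and stigmas stay nearly level, and anthers are highest at BCP on the left (8.46) and lowest at TCP on the right (5.75).

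The contrast between anthers and female organs was compared directly between BCP and UNM, which share kits in all 3 organs. The difference from ovaries moved upward from UNM to BCP for 2742 probe sets (4.48%) and downward for 3068 (5.01%), and that from stigmas for 3163 (5.17%) and 3498 (5.72%), by the interaction of organ and stage in limma. Levelled on the hybridisation controls, these were 4131 upward and 2279 downward against ovaries, and 3865 and 2846 against stigmas. The excess of FBP over ovaries changed by -2.55 log2 units (SE 0.29, adjusted p = 2.3e-08) and that of petC by -2.40 (SE 0.30, adjusted p = 1.6e-07). FBP had means of 9.94 in UNM and 8.75 in BCP anthers, and of 5.84 and 7.21 in ovaries, so both organs moved. The change of GAPN was -0.67 against ovaries (SE 0.35, adjusted p = 0.23) and -0.89 against stigmas, and neither was called. Without anther replicate 1 these became -1.07 and -1.29 and were called, and without stigma replicate 2 the value against stigmas became -1.14 and was called. For XTH the contrast with stigmas changed by -2.82 (SE 0.29, adjusted p = 3.2e-09).

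The 3 anther arrays, on which all these comparisons rest, were examined for their spread. The median SD of a probe set was 0.146 in anthers, 0.123 in ovaries and 0.153 in stigmas, so anthers were not wider than stigmas at the median. An SD above 1 was found for 353 probe sets in anthers (0.577%), 258 in stigmas (0.422%) and 43 in ovaries (0.0703%). The largest SD was 4.25 in anthers, against 2.42 in stigmas and 2.27 in ovaries. Anther replicates 1 and 2 correlated at 0.992, replicates 1 and 3 at 0.990 and replicates 2 and 3 at 0.985.

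The wide probe sets set a pair of arrays apart. Replicates 2 and 3 were the extremes for 333 of the 353. Replicate 2 was highest and replicate 3 lowest for 192, and of these 188 had a lower mean in TCP than in UNM anthers. Replicate 3 was highest and replicate 2 lowest for 141, and of these 137 had a higher mean in TCP than in UNM anthers, against 59.1% of all probe sets. Whole arrays showed the same order. Replicate 3 correlated with the anther UNM mean at 0.930 and with the TCP mean at 0.859, whereas replicate 1 gave 0.948 and 0.834 and replicate 2 gave 0.954 and 0.828. With the mature pollen mean the values were 0.721 for replicate 3, 0.684 for replicate 1 and 0.682 for replicate 2.

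**Figure D5:**
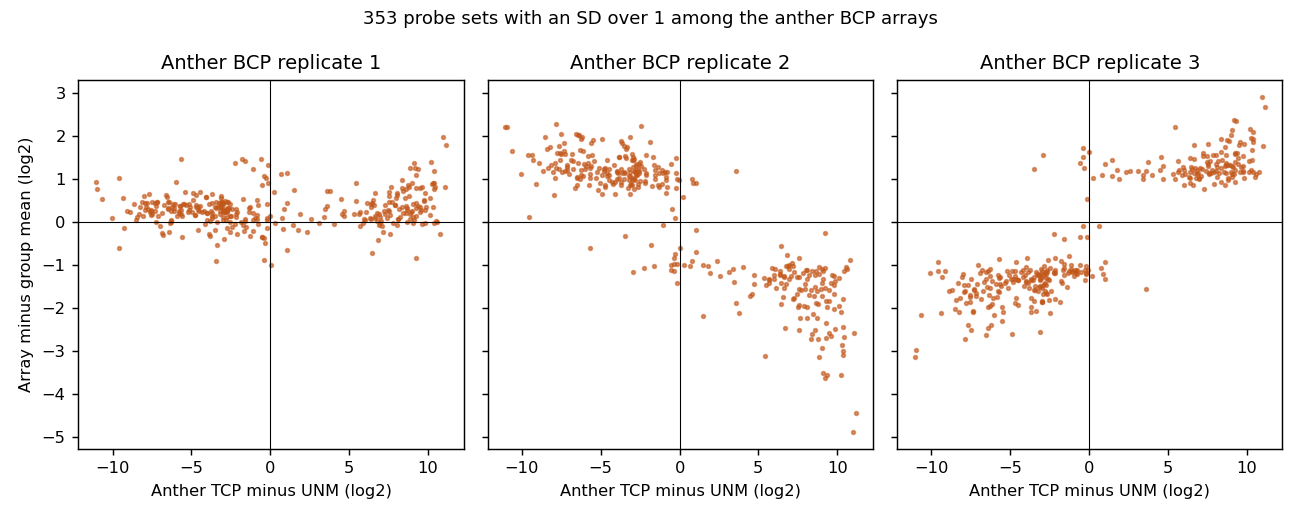
Deviation of each BCP anther array from the mean of the 3 arrays (vertical, log2) against the difference of anther TCP minus anther UNM (horizontal, log2) for the 353 probe sets with an SD over 1 among the BCP anther arrays. Replicate 2 lies above 0 on the left and below 0 on the right, and replicate 3 the opposite. Points at the middle are few because the plot holds the wide probe sets only.

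A probe set that changed at least 4-fold between UNM and TCP anthers, of which there were 7477, gave a position along that change. The median BCP array value had covered 0.239 of the way from the UNM to the TCP mean on replicate 3, 0.135 on replicate 1 and 0.131 on replicate 2. For the 4993 probe sets that were lower at TCP the median change from the UNM mean was -0.78 on replicate 3, -0.36 on replicate 1 and -0.41 on replicate 2. The 2484 that were higher at TCP gave 0.68, 0.54 and 0.42. The TCP arrays were made with other kits than the UNM and BCP arrays, so the scale of these shares is not one of stage alone. Poly-A control transcripts, which are added to the RNA before labelling, averaged 6.83 on replicate 3, 7.23 on replicate 1 and 7.00 on replicate 2. The hybridisation controls averaged 10.73, 10.78 and 10.86 on the same arrays, and the part of these technical values in the spread was not tested.

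Most of the wide probe sets were kept. Of the 353, 210 were kept higher and 34 kept lower, which is 69.1%, against 9.45% of all probe sets kept in either direction. They were 6.61% of the higher set and 1.31% of the lower set. Of these 244, 20 were no longer kept without anther replicate 3, 21 without replicate 2 and 12 without replicate 1. In the whole set, leaving out anther replicate 3 cost 321 of the 2601 lower and 201 of the 3179 higher probe sets, leaving out replicate 2 cost 86 and 104, and leaving out replicate 1 cost 51 and 191. GAPN, FBP and petC, higher in UNM than in TCP anthers, were lowest on anther replicate 3, and actin, higher at TCP, was highest there. CAT1 and XTH, also higher in UNM than in TCP anthers, were lowest on replicate 2.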

How the data were processed

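Total RNA was hybridised to 39 wheat arrays in 13 groups of 3. Per the labels' protocols, UNM and BCP samples were extracted with RNeasy, with a clean-up on InviTrap columns, and the 3' IVT Express kit labelled them. TET samples had other kits, and TCP and MPG others again. The deposited values are log2 signals that the authors made with RMA, per the submitters' processing notes. The RMA version, and if it was run once over the 39 arrays, is not stated in the labels. RMA forces arrays to a common distribution. Arrays have no read depth, and the number of arrays limits the precision.

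Tests used limma 3.58.1 in R 4.3.3 (a mean for each of 13 groups over 39 arrays, contrasts, eBayes). The residual degrees of freedom were 26 and the prior ones 7.49. The code was checked on simulated data with independent noise of equal spread in all groups. Such data lack the uneven replicate spread of these arrays, so the check does not bear on it. Folds are the log2 differences on a linear scale. P-values and SEs set each difference against a spread pooled over all 39 arrays, not that of the compared arrays alone. For CYP86-TA 3', for example, the anther SD was 1.35 and the SE of the difference 0.32. Probe sets beginning with AFFX were left out, without a filter on dim ones. The members and lists were chosen with earlier results of these data known. By rule, all 13 genes with a name were given, and at most 5 locus numbers and 2 unnamed probe sets per direction: those with no overlap of arrays and the largest smaller difference. Of the marker lists, the annotation named actin and TUBA for pollen, petC and FBP for green tissue and XTH for the pistil, and none for tapetum or dividing cells. No sequences were used here.

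Deviations of same-numbered arrays correlated at 0.009 to 0.083 between anthers and ovaries, and at 0.260, 0.104 and 0.129 between anthers and stigmas. Between ovaries and stigmas they correlated at 0.082, 0.436 and 0.063. Pairing was read as possible for anthers with stigmas, but without values for differently numbered arrays these correlations cannot decide it. Alternatives were 2 other scalings, a filter on dim probe sets, the 9 BCP arrays alone, other variance models, array weights, a replicate block, other thresholds, the wheat controls kept, a contrast with the mean of the female organs, and leaving out each BCP array.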

Additional observations from a re-analysis of the deposited data

Results flagged for a closer look

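The contrast between anthers and a female organ differed between BCP and UNM, by the interaction test in limma, for 4 of the 13 named genes. For CAT1 the excess in anthers was smaller at BCP by -1.63 against ovaries (adjusted p = 0.0082). Against stigmas its change of -1.22 was not called, but was called without anther replicate 1 (-1.55) and with array weights (-1.51). At the same value of -1.22 it was also called with the filter on dim probe sets and with a separate variance for each group. FBP changed by -2.55 against ovaries and -2.49 against stigmas, and petC by -2.40 and -2.46. XTH changed by -1.02 against ovaries and -2.82 against stigmas. The first of these calls ended when the hybridisation controls set the scale (-0.80), at an adjusted p threshold of 0.01, and without anther replicate 2 (-0.88), anther replicate 3 (-0.99) or ovary replicate 2 (-0.94). The wheat controls are outside this count. At its 3' probe set actin changed by 7.84 and 7.68, Sucsyn by -2.37 and -2.93, CYP86-TA by -2.77 and -3.01, and G-6-PDH by -1.66 and -2.30, all called. The 3' probe sets of gapdh, ef1a and ubiquitin were not called.

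Among loci without a description the change was upward for LOC543135 (6.31 against ovaries and 6.62 against stigmas), LOC543369 (5.60 and 6.01) and LOC542873 (2.09 and 2.15). It was downward for LOC606361 (-1.40 and -1.44), LOC606308 (-2.84 and -2.60), LOC542961 (-4.22 and -4.19) and LOC100037600 (-2.35 and -3.59). Ta.16011.1.S1_at, which has no symbol, changed by 8.12 and 7.98. The UNM anther arrays had an SD of 2.15 for this probe set and of 1.46 for LOC543135. For TaAffx.87253.3.S1_at the change was not called (1.02 and 1.21), but without anther replicate 3 it was (1.46 and 1.65). It was also called against ovaries with array weights (1.24), and against stigmas when the hybridisation controls set the scale (1.35).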

How the results depend on the processing

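The totals called in both directions together stayed within 1.5 times of those reported except where the fold minimum was changed. With no minimum fold, 18689 probe sets were called against ovaries, 19343 against stigmas and 12664 in both the same way, and the change of the contrast from UNM to BCP was called for 9795 against ovaries and 10825 against stigmas. With a minimum log2 difference of 2 these counts were 3115, 3382, 2254, 1851 and 2107. The probe sets kept numbered 5780, against 8103 called in a single contrast with the mean of the female organs, and 5487 (without anther replicate 3) to 6035 (without anther replicate 2) when a BCP array was left out. A replicate block kept 5784, or 5778 on the 9 BCP arrays alone, and changed no call of a named gene. The direction of the split depended on scaling. When the mean of the hybridisation controls was made equal between arrays, which shifted the median of all probe sets to -0.15 against ovaries and -0.30 against stigmas, 2602 were kept higher and 3448 lower (43.0% higher, against 55%). The other splits under this scaling are given with the comparisons. Values for single genes, loci and controls were recomputed 3201 times: 3163 stayed on the same side of the call, 19 calls ended and 19 arose. No call changed sign, but 59 uncalled differences of at most 0.22 among the 3163 did. The actin 5' call against stigmas ended when the hybridisation controls set the scale (0.94). The BCP minus UNM contrasts could not be computed on the 9 BCP arrays alone.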

Other observations

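Stigma arrays also differed by replicate, but without the mirrored pattern of the anther arrays. Among the BCP stigma arrays 258 probe sets had an SD over 1. Replicate 2 was highest and replicate 3 lowest for 113, and 103 of these had a higher mean in TCP than in UNM stigmas. Replicate 3 was highest and replicate 2 lowest for 62, of which 35 had a higher and 27 a lower TCP mean. The share over all probe sets was not computed for stigmas. Over the 3443 probe sets that changed at least 4-fold between UNM and TCP stigmas, the median BCP value had covered 0.385 of the way on replicate 2, 0.268 on replicate 1 and 0.270 on replicate 3. In ovaries, where 1303 probe sets changed that much, the shares were 0.221, 0.150 and 0.118 for replicates 2, 1 and 3. Stigma replicate 3 had the lowest control transcripts of the 9 arrays, at 10.31 for the hybridisation and 6.57 for the poly-A controls.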
